A study of Pavo cristatus and Gallus gallus and Meleagris gallopavo with 54 samples.

Results

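A set of 10 genes that mark macrophages, CTSS, GPNMB, C1QA, C1QB, CSF1R, LCP1, SPI1, LAPTM5, MARCO and LY86, was followed through quail embryonic fibroblast cultures, to see which cultures held their RNA. The genes were picked by name from the quail CAGE table with its values in view, so their quail levels, and every comparison of those levels between media, embryos or sexes, are descriptions without a test. All 10 genes had a promoter peak there, 11 peaks among the 9385 promoter peaks of 8331 genes. The study compared male and female fibroblasts of 7 bird species by CAGE (capped 5′ ends of transcripts, as TPM, the tags of a peak scaled to the library total) and, for a subset, by RNA-seq. Fibroblasts came from the trunk of embryos at about stage 36 of the Hamburger-Hamilton series, 1 embryo per sample, after head, neck, limbs, skin, fat and internal organs had been taken off, and were harvested at passage 5. Cells of each quail embryo were grown both in DMEM high glucose and in DMEM/F12 (here F12), each with 10% fetal bovine serum. The high-glucose cultures were C26 (female), C28 (male) and C30 (female), and the F12 cultures of the same embryos were C25, C27 and C29, in that order. RNA-seq was made from the F12 cultures C27 (male) and C25 (female) only. Chicken and duck also had 3 embryos in both media, and zebra finch had 1 male and 3 females in DMEM with serum only. In chicken C07 to C10 were female and C11 and C12 male. In duck C31 and C32 were female and C33 to C36 male. The labels name no cell sort between the digested trunk and the cultures, and each medium holds 1 culture per embryo.

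Macrophages are phagocytes that colonise embryonic tissues early and clear dying cells. The transcription factor SPI1 (PU.1) sets their identity, and CSF1R, the receptor for CSF1 and IL34, carries the signal on which their survival rests. Complement C1q, scavenger receptors and a rich lysosome serve uptake and digestion, and fibroblasts can supply the growth factors CSF1 and IL34. In bulk RNA, more cells of a type and more RNA per cell cannot be told apart.

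The fibroblast label was borne out by high collagen levels. COL1A1, the chain of type I collagen, stood at 7571, 15093 and 7684 TPM in C26, C28 and C30. In C25, C27 and C29 it stood at 26409, 10568 and 12343 TPM. Of 12 fibroblast genes 10 had a peak. Their summed TPM was 15336, 26776 and 13754 in the high-glucose cultures. In the F12 cultures it was 42001, 19553 and 23431, and these ranges overlapped. LUM was low in C26 and C30, with 327, 1390 and 152 TPM in C26, C28 and C30. In C25, C27 and C29 it had 1778, 1063 and 1329 TPM. Of the 10, only TWIST1 had every high-glucose culture above every F12 culture, and none had the reverse (11.5% and 5.43% of all genes). Nothing is read from these counts. None of 12 lymphocyte genes and none of 14 erythroid genes had a quail promoter peak. Quail RNA-seq listed only 9 and 3 of them by symbol. The lack of a peak is not read as a lack of RNA, whether or not a gene is listed there, since a peak needs 10 TPM in a sample. The quail libraries held 9301881 to 11752969 tags, and all 22 CAGE libraries of the 4 species 7006060 to 12055368. By limma with an adjusted p under 0.05, 7 promoter peaks differed between media and 12 between sexes in quail, 0 and 241 in chicken, 2 and 385 in duck, and 24 between the sexes in zebra finch. In chicken 338 peaks had an unadjusted p under 0.05 for the medium, and edgeR called 0 there as well. The fits for the sexes held no embryo term, so both cultures of an embryo entered as replicates of its sex. The only male embryo was that of C27 and C28 in quail and of C11 and C12 in chicken. In duck the only female embryo was that of C31 and C32. The p values for the sexes therefore do not measure the spread between embryos of a sex.

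**Figure D1:**
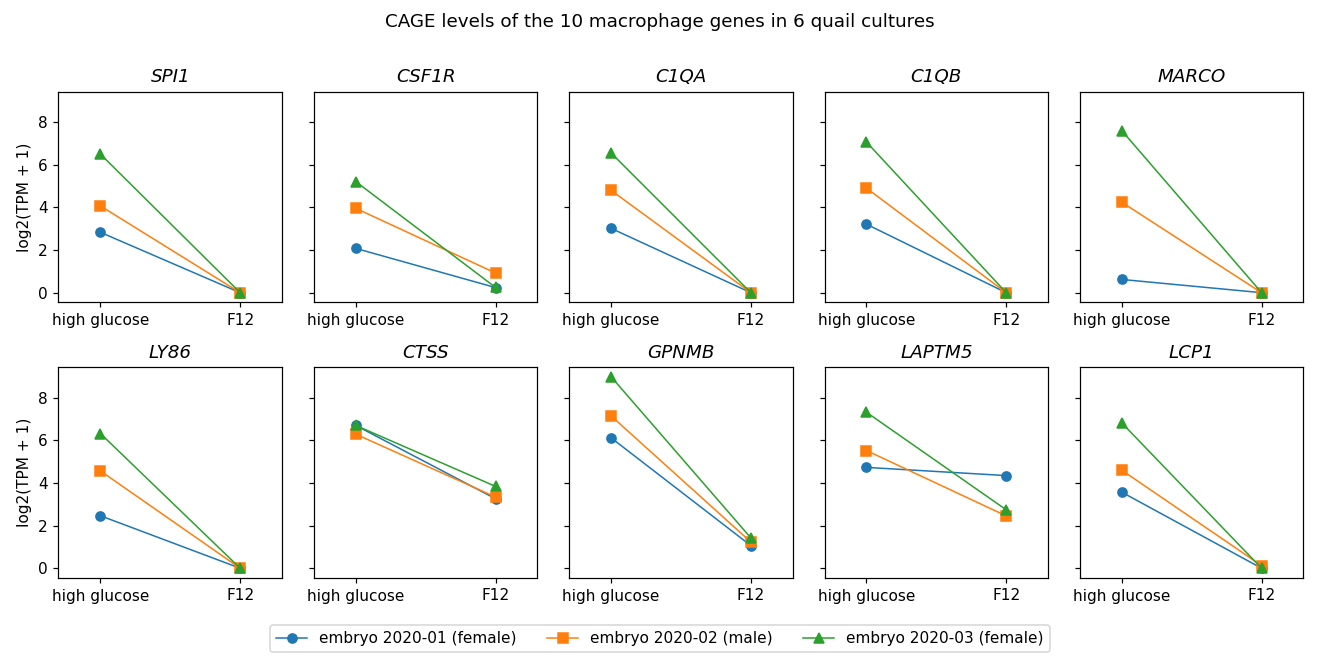
CAGE level of each of the 10 genes, as log2(TPM + 1), in the high-glucose culture (left) and the F12 culture (right) of each quail embryo, with 1 line per embryo. All 3 high-glucose cultures lie above all 3 F12 cultures in every panel, SPI1, C1QA, C1QB, MARCO and LY86 lie at 0 in F12, and C30 tops the high-glucose cultures in all panels but that of CTSS, where it meets C26.

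SPI1 had 6.13, 15.8 and 89.8 TPM in C26, C28 and C30, and no tag in C25, C27 or C29. Its peak lay at the gene start (NC_029520.1, 20478300 to 20478494, plus strand, in the Coturnix_japonica_2.1 assembly that the study used). CSF1R had 3.23, 14.5 and 36.1 TPM in C26, C28 and C30, against 0.181, 0.897 and 0.187 TPM in C25, C27 and C29. The receptor was therefore seen in every F12 culture, though with only 2, 10 and 2 tags. The CSF1R peak lay 840 bases from the annotated gene start (NC_029528.1, 4797875 to 4798038, minus strand).

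Complement C1q is a secreted protein that tags dying cells and immune complexes, and its A and B chains come from neighbouring genes. C1QA had 7.10, 26.9 and 93.1 TPM in C26, C28 and C30, and C1QB had 8.28, 29 and 133 TPM there. Neither gene had a tag in any F12 culture. The main start sites of C1QA and C1QB lay 5323 bases apart on the minus strand of one sequence (NC_029536.1, 5279873 to 5279991 for C1QA and 5274527 to 5274715 for C1QB). The ratio of C1QA to C1QB was 0.857 in C26, 0.927 in C28 and 0.699 in C30, so the proportion of the chains moved far less than their levels, which differed by over 10 times between C30 and C26.

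MARCO, a scavenger receptor for bacteria and particles, had 0.538, 18 and 194 TPM in C26, C28 and C30, and no tag in F12. It showed the widest range of the 10 genes in high glucose, as its 5 tags in C26 came to 0.278% of its level in C30 (95% interval 0.0901 to 0.649%, counting error only). LY86 (MD-1), a secreted partner of a Toll-like receptor homologue in mammals, had 4.52, 22.7 and 79.0 TPM in C26, C28 and C30, and none in F12.

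CTSS, a lysosomal cysteine protease that trims antigens, had 103, 77.3 and 103 TPM in C26, C28 and C30, against 8.60, 9.15 and 13.3 TPM in C25, C27 and C29. CTSS was the exception in that C26 equalled C30, whereas C28 had 75.0% of the C30 level (95% interval 68.6 to 82.0%). Its peak lay at -2123 bases from the annotated start, within the 3 kb that counted as promoter (NC_029540.1, 2092894 to 2093017, minus strand). GPNMB, a glycoprotein of late endosomes in macrophages and pigment cells, had 68.5, 141 and 505 TPM in C26, C28 and C30, against 1.09, 1.34 and 1.68 TPM in C25, C27 and C29. In C30 GPNMB was the highest of the 10 genes. LAPTM5, a lysosomal membrane protein of blood cells, had 25.6, 45 and 159 TPM in C26, C28 and C30, against 19.4, 4.48 and 5.69 TPM in C25, C27 and C29. The gap between C26 and C25 was the narrowest of any gene and embryo, since C25 was already over 3 times the other F12 cultures.

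LCP1 (L-plastin), which bundles actin in leukocytes, had 2 promoter peaks that together gave 10.9, 23.2 and 112 TPM in C26, C28 and C30, and 1 tag in all of F12 (0.0897 TPM in C27). The peak at the gene start carried 91.1, 87.5 and 85.9% of its tags in C26, C28 and C30. Both start sites were thus in use in all 3 high-glucose cultures.

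In all 10 genes every high-glucose culture lay above every F12 culture, which held for 11.5% of all genes. Nothing is read from that count, as the genes were chosen on these values. In addition, 8 of the 10 (all but CTSS and LAPTM5) reached the 10 TPM that a peak needs only in high glucose, so that they had to differ. No gene was at 0 in C26, C28 or C30, whereas 6, 5 and 6 of the 10 were at 0 in C25, C27 and C29, where 3 tags correspond to 0.269 to 0.280 TPM.

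Within embryos the distance between the media differed widely. The pair C30 and C29 had the largest folds of high glucose over F12, with a median over the 10 genes of 311, whereas it was 75.6 for C28 and C27 and 20.2 for C26 and C25 (a gene at 0 in F12 entered at its lower bound against 3 tags per library). GPNMB was 301-fold higher in C30 than in C29 (95% interval 190.3 to 508), 105-fold higher in C28 than in C27 (63.3 to 187) and 63.1-fold higher in C26 than in C25 (35.9 to 123), where intervals cover counting error only. For CTSS the folds ran the other way, with 7.73, 8.46 and 12 in the same pairs. C1QB was at least 476-fold higher in C30 than in C29, at least 108-fold higher in C28 than in C27 and at least 30.5-fold higher in C26 than in C25. LAPTM5 was 27.9-fold, 10.04-fold and 1.321-fold higher in those pairs (95% interval of the smallest 1.09 to 1.60). The mean difference of the 10 genes on the log2(TPM + 1) scale was 6.08, 4.2 and 2.64 in those pairs, or 4.31 ± 1.72 (SD, n = 3 embryos).

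The order of the cultures was the same for nearly every gene. C30 exceeded C28 in 10 of 10 genes, by 1.33 to 10.8-fold with a median of 3.56, and the 95% counting interval lay above 1 in all 10. C28 exceeded C26 in 9 of 10, with a median ratio of 3.04, and CTSS, at a ratio of 0.750, went the other way with an interval below 1. C30 exceeded C26 beyond counting error in 9 of 10, with a median ratio of 12.2, and for CTSS the ratio was 1.00. There is 1 culture per embryo and medium, so these intervals do not cover the spread between cultures of one embryo. The share of all genes with this order is not given. The genes were chosen on these values, and in C26 only 4 of the 10 reached 10 TPM. The others entered through C28 or C30, which favours a low rank of C26. Nothing is therefore read from the counts of genes in this order. The summed TPM of the 10 genes was 238, 413 and 1504 in C26, C28 and C30, against 29.2, 16 and 20.9 in C25, C27 and C29. All these cultures therefore lay far below the collagen genes, as the sum in C30 was 0.150% of its tags.

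**Figure D2:**
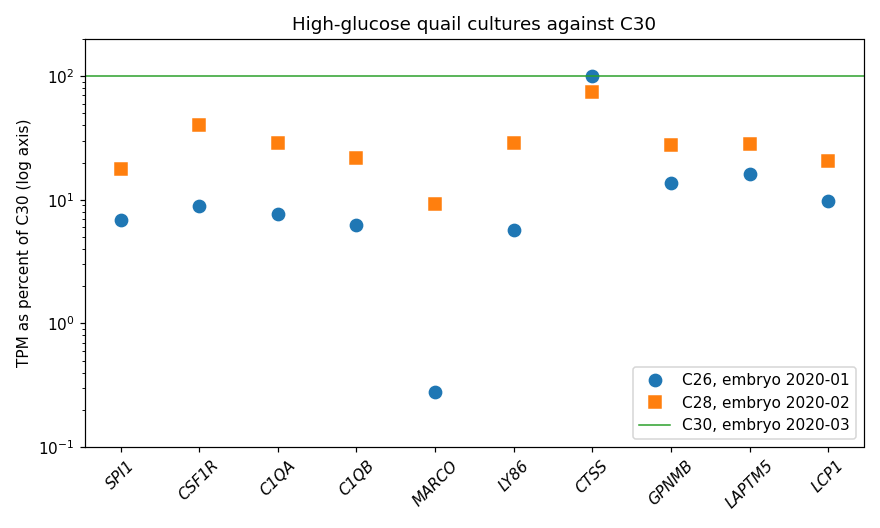
Level of each of the 10 genes in the high-glucose cultures C26 (circles) and C28 (squares) as percent of its level in C30, on a log axis. C28 lies at 9.27 to 75.0% and C26 at 0.278 to 100%, with CTSS at the top of both and MARCO at the bottom.

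Set against C30, the 10 genes stood at a median of 28.1% in C28 and 8.28% in C26. Apart from CTSS and MARCO the remaining 8 stayed within a narrow band, 17.6 to 40.3% in C28 and 5.71 to 16.1% in C26, although their levels in C30 ran from 36.1 TPM (CSF1R) to 505 TPM (GPNMB). Each CAGE tag marks one 5′ end, so shares of tags within the set can be compared between genes without a length. GPNMB made up 28.8, 34.1 and 33.6% of the set in C26, C28 and C30. CTSS made up 43.4, 18.7 and 6.86%, and MARCO 0.226, 4.34 and 12.9%. The make-up of the set was thus not the same in the 3 cultures, mainly through those 2 genes, while LAPTM5 held 10.8, 10.9 and 10.6%. In F12 the set was almost all CTSS and LAPTM5, which made up 29.4 and 66.3% in C25, 57.3 and 28.1% in C27, and 63.8 and 27.2% in C29.

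The sexes, with 1 male embryo, were not separated by these genes. In high glucose C28 lay between the female cultures C26 and C30 in 9 of the 10 genes and below both for CTSS. In F12 C27 lay between the females for CTSS and GPNMB, above both for CSF1R and LCP1, below both for LAPTM5, and at 0 with both for the other 5.

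A wider set of 87 genes in 9 lists (myeloid transcription factors, growth factor and sensing receptors, complement and scavenger genes, lysosome genes of phagocytes, NADPH oxidase, leukocyte cytoskeleton and adhesion, leukocyte signalling, antigen presentation, and macrophage growth factors) gave a context for these 10. Of the 87, 27 had a quail promoter peak. In 18 of the 27 every high-glucose culture lay above every F12 culture, and in 1, RUNX1, below (11.5% and 5.43% of all genes). For 14 of the 27 the 10 TPM was reached only in high glucose. By limma none of the 27 passed in either direction over all 9385 peaks, where 0.0639% were called higher and 0.0107% lower and where 1032 peaks had an unadjusted p under 0.05. Of the 30 peaks of these genes 16 had an unadjusted p under 0.05, and edgeR with TMM called none (21 unadjusted, with 0.0213% of all peaks called higher and 0.0107% lower). With the embryo as a block limma called CTSC higher and RUNX1 lower (0.245% and 0.117% of all peaks called), each with an adjusted p of 0.0456, and edgeR with the block called the weaker of 2 CTSB peaks and the MPEG1 peak higher, with adjusted p of 0.0489 and 0.0410 (0.341% of all peaks called higher and 0.0852% lower). Both of these peaks reached 10 TPM only in high glucose, so that they had to differ and nothing is read from these 2 calls. The stronger CTSB peak had an adjusted p of 0.123 there. As the lists were chosen with earlier results of these data known, the calls of CTSC and RUNX1 are no independent test.

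**Figure D3:**
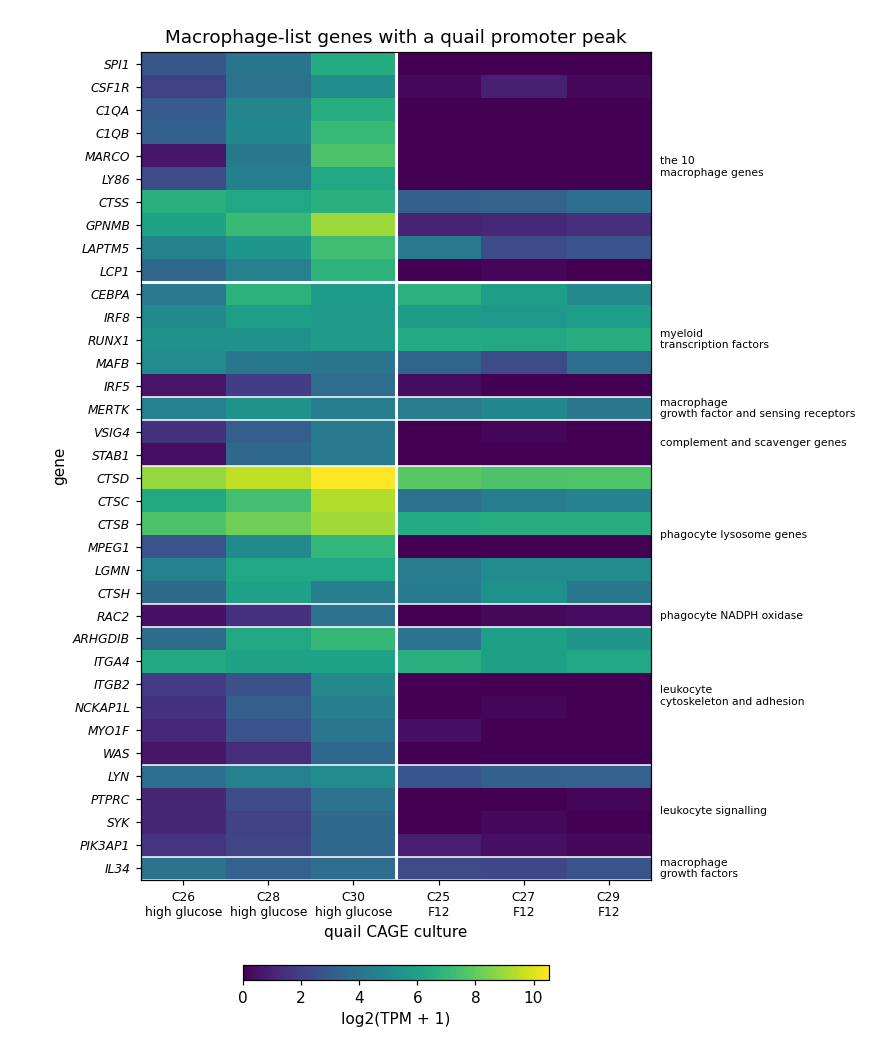
Heat map of log2(TPM + 1) in the 3 high-glucose (left) and 3 F12 (right) quail cultures for the 10 genes (top block) and for other genes of the macrophage lists that had a promoter peak, grouped by list. Most genes of uptake, signalling and cytoskeleton are near 0 in F12 and brightest in C30. CEBPA, IRF8 and ITGA4 are among those bright in both media.

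Myeloid transcription factors did not follow SPI1 as a group. IRF5 had 0.538, 2.72 and 12.7 TPM in C26, C28 and C30, and at most 3 tags in an F12 culture. IRF8 had 31.9, 58.7 and 51.4 TPM in C26, C28 and C30, against 54.6, 48.8 and 57.4 TPM in C25, C27 and C29. CEBPA, at 19, 109 and 54.1 TPM in C26, C28 and C30, likewise overlapped its F12 levels of 105, 58.9 and 30.4 TPM. RUNX1, needed for blood stem cells but also present in connective tissue, averaged 45.7 ± 6.64 TPM in high glucose and 87.9 ± 7.15 TPM in F12 (SD, n = 3 each).

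Among surface and uptake genes, STAB1, a scavenger receptor, had 0.323, 10.8 and 18.9 TPM in C26, C28 and C30, and VSIG4, a receptor for complement fragments, had 1.94, 8 and 19.7 TPM. STAB1 had no tag in F12 and VSIG4 had 1. MPEG1, a pore-forming protein of the phagosome, had 5.48, 31.4 and 126 TPM in C26, C28 and C30, and no tag in F12. These genes kept the order of SPI1 in the 3 high-glucose cultures. So did the leukocyte integrin chain ITGB2 with 2.69, 5.11 and 29.9 TPM, the common leukocyte antigen PTPRC (CD45) with 1.18, 4.51 and 15 TPM, and the kinase SYK with 1.18, 3.15 and 11.5 TPM. In F12 ITGB2 had no tag, PTPRC 1 and SYK 2. On the list of ITGB2, leukocyte cytoskeleton and adhesion, 4 of the 6 genes with a peak had every high-glucose culture above every F12 culture. The others, ITGA4 and ARHGDIB, overlapped between the media. ITGA4 had 84.9, 65.3 and 68.4 TPM in C26, C28 and C30, against 100.1, 62.5 and 78.3 TPM in C25, C27 and C29. ARHGDIB was higher in high glucose in 2 embryos and lower in 1 (0.809 to 2.92-fold).

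RAC2, a subunit of the phagocyte NADPH oxidase and the only one of 6 with a peak, had 0.430, 1.87 and 14.8 TPM in C26, C28 and C30, and at most 0.280 TPM in F12. MERTK is a receptor for dying cells and the only one of 14 growth factor and sensing receptors with a peak. It had 23, 39.8 and 21.5 TPM in C26, C28 and C30, against 21, 28.1 and 17.2 TPM in C25, C27 and C29. The media overlapped, though each embryo was higher in high glucose (1.10 to 1.42-fold). Only 4 of the 6 oxidase genes and 6 of the 14 receptors were listed by symbol in quail RNA-seq.

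The lysosomal cathepsins differed from these genes in that F12 cultures also held them. CTSB had 195, 306 and 541 TPM in C26, C28 and C30, against 89.6, 94.9 and 95 TPM in C25, C27 and C29. CTSD had 469, 731 and 1485 TPM in C26, C28 and C30, against 228, 192 and 196 TPM in C25, C27 and C29. CTSC, which activates granule proteases, had 84.2, 169 and 643 TPM in C26, C28 and C30, against 14.3, 21.3 and 24.8 TPM in C25, C27 and C29. LGMN and CTSH, also lysosomal, overlapped between the media. Within embryos, however, LGMN was higher in high glucose in all 3 (1.15 to 2.43-fold), whereas CTSH was higher in 2 and lower in 1. Thus CTSB, CTSC, CTSD and MPEG1 lay apart between the media, and LGMN differed only within embryos.

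The macrophage growth factor IL34 had 15.5, 8.85 and 12.5 TPM in C26, C28 and C30, against 4.43, 3.77 and 5.596 TPM in C25, C27 and C29, and so did not follow the order of the cultures seen in its receptor CSF1R. The other growth factors on that list, CSF1 and CSF2, and all 7 genes of antigen presentation had no quail promoter peak. Only 2 of those 7 genes and 2 of the 3 growth factors were listed by symbol in quail RNA-seq. RNA-seq nonetheless recorded CSF1 in F12, with 7.56 FPKM in the male and 9.26 FPKM in the female, above IL34 at 2.94 and 2.93 FPKM. ATP6V0D2, a proton pump subunit of osteoclasts and macrophages, had 2.37, 8.08 and 17.5 TPM in C26, C28 and C30, and 1 tag in F12. NFATC1, the regulator of osteoclast formation, was lower in high glucose, with 91.2 ± 14.6 TPM against 214 ± 34.4 TPM in F12 (SD, n = 3 each). Of 11 melanocyte genes only MITF, shared with macrophages and osteoclasts, had a peak (42 ± 10.3 TPM in high glucose, 19.9 ± 3.02 TPM in F12, SD, n = 3 each), and the other 10 had none. FLT1, a VEGF receptor of endothelium and of some macrophages, had 44.3, 5.62 and 47.8 TPM in C26, C28 and C30, against 10.9, 2.15 and 9.79 TPM in C25, C27 and C29. Of 9 granulocyte and mast cell genes, 3 of them listed by symbol in quail RNA-seq, only HPGDS had a peak. It had 6.77, 149 and 15.8 TPM in C26, C28 and C30, against 20.9, 123 and 3.26 TPM in C25, C27 and C29. HPGDS was highest in both cultures of the male embryo. Of 6 thrombocyte genes F13A1 and ITGB3 had one. ITGB3 overlapped between the media, though each embryo was lower in high glucose. The endothelial genes with a peak did not move as one. EGFL7 had 17, 27.3 and 45.3 TPM in C26, C28 and C30, against 46.9, 46.5 and 98.1 TPM in C25, C27 and C29, without overlap, and ERG overlapped between the media. The part of these other cell types in the levels of the 10 genes was not tested.

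Across the 6 quail libraries, 646 genes with a symbol reached 20 TPM and varied by at least 2 on the log2 scale, and the 636 that were not among the 10 were ranked by Pearson's r with the mean log2(TPM + 1) of the 10. The most like was CTSB with r = 0.999, and RGS1, a regulator of G protein signalling in leukocytes, followed with 0.999. MPEG1 (0.998), the chemokine CXCL12 (0.998), CTSD (0.997), LITAF (0.996) and the lysosomal activator PSAP (0.995) came next. NCKAP1L, ATP6V1C2, CTSC, ITGB2, IFI30, ALOX5AP, ATF3, VSIR, ALKAL1, SLC9A9, ABCA1, STK10 and BPI completed the first 20. Of these 20, 6 were on a macrophage list, and the share among all 636 is not given. IFI30, a lysosomal reductase of antigen-presenting cells, had 64.7, 106 and 586 TPM in C26, C28 and C30, against 2.90, 4.03 and 1.59 TPM in C25, C27 and C29. CXCL12, made by stromal cells, had 71.0, 133 and 245 TPM in C26, C28 and C30, against 27.4, 24 and 29.4 TPM in F12. At the other end stood CACNG3 (-0.979), BCAN (-0.948), PGF (-0.947), RCAN1 (-0.944) and TCF15 (-0.944). PGF, a growth factor of the VEGF family, had 77.2, 112 and 22 TPM in C26, C28 and C30, against 387, 328 and 600.5 TPM in C25, C27 and C29. These r values rest on 6 libraries that fall into the 2 media and describe likeness only.

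A second view took the genes that were nearly silent in F12. In quail, 78 genes (0.936% of 8331) stayed under 1 TPM in every F12 culture and reached 10 TPM in a high-glucose one, and 7 of them were among the 10. Of the other 71, 45 carried a symbol and 12 were on a macrophage list, as were 27 of all 8331 genes. The levels ran in the order C30, C28, C26 in 69 of the 78 genes and in the order C30, C26, C28 in 7. C30 was thus highest in nearly all, and a gene could enter through C30 alone. The share of all genes with this order is not given, so nothing is read from it. ALOX5AP, which feeds leukotriene synthesis, had 2.69, 13.8 and 62.1 TPM in C26, C28 and C30, and BPI, a bactericidal protein, had 1.51, 7.40 and 52.0 TPM. GPR34, a lysophospholipid receptor of microglia and macrophages in mammals, had 0.538, 5.36 and 22.6 TPM, and LCP2, an adaptor of leukocyte signalling, 0.968, 3.15 and 20.4 TPM. F13A1, made by thrombocytes and macrophages, had 2.04, 9.53 and 42.8 TPM. IL18BP, which binds interleukin 18, broke the order with 9.89, 1.19 and 77.1 TPM.

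Not all of the 78 were leukocyte genes. In 14 both C26 and C28 were under 10% of C30, and of these MARCO alone was among the 10 or on a macrophage list. DES, the intermediate filament protein of muscle, had 37.7 TPM in C30 and at most 0.108 TPM in each of the other cultures. PI3, TMEFF1, PKP2, MYH15, NMB and TUBB3 were likewise high in C30 alone, at 34.2, 20.2, 20.1, 19.9, 19.4 and 13.4 TPM. These 14 genes were picked for standing low in C26 and C28 beside C30, and the share of all genes that do so is not given. Nothing is therefore read from their number.

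RNA-seq of the F12 cultures C27 (male) and C25 (female) gave 133819725 and 76881945 counts and bore on F12 alone. CTSS was highest of the 10, with 9.28 FPKM (1780 counts) in the male and 21.5 FPKM (2148 counts) in the female. LAPTM5 had 1.24 FPKM in the male and 6.06 FPKM in the female, and GPNMB had 1.97 and 1.10 FPKM. These 3 were the only ones above 1 FPKM in either library. LAPTM5 thus stood higher in C25 than in C27 in both assays, since CAGE gave 4.48 TPM in C27 and 19.4 TPM in C25. CTSS did not repeat its RNA-seq difference in CAGE, at 9.15 TPM in C27 and 8.60 TPM in C25.

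The other 7 genes were at or under 0.575 FPKM. CSF1R had 390 counts (0.575 FPKM) in the male and 86 counts (0.244 FPKM) in the female, a male to female ratio of depth-scaled counts of 2.61 (95% interval 2.06 to 3.33, counting error only). MARCO had 101 and 37 counts in the male and the female, SPI1 12 and 1, LY86 13 and 4, LCP1 9 and 1, C1QA 8 and 0, and C1QB 1 and 0. All of the 10 genes were therefore counted at least once in the male F12 culture, without a replicate check of either sex. With counts scaled by library totals alone, CSF1R and GPNMB were higher in the male beyond counting error, and CTSS and LAPTM5 lower. For MARCO and SPI1 the 95% intervals of the ratio started at 1.07 and 1.02. Another scaling of the libraries could move these across 1, so no difference is read for MARCO or SPI1. For C1QA, C1QB, LCP1 and LY86 the 95% interval of the ratio included 1. Among genes that CAGE recorded with 1 tag or none in F12, MPEG1 had 2 and 0 counts in the male and the female and VSIG4 5 and 5. Others had more reads, as PTPRC had 943 and 395 counts (0.914 and 0.736 FPKM) and STAB1 114 and 172 counts (0.0904 and 0.262 FPKM). F13A1 had 1786 and 215 counts (2.27 and 0.5262 FPKM), against 0.897 TPM in C27 and no tag in C25 by CAGE. RNA-seq reads thus recorded some leukocyte genes in F12 that had hardly a promoter tag there.

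**Figure D4:**
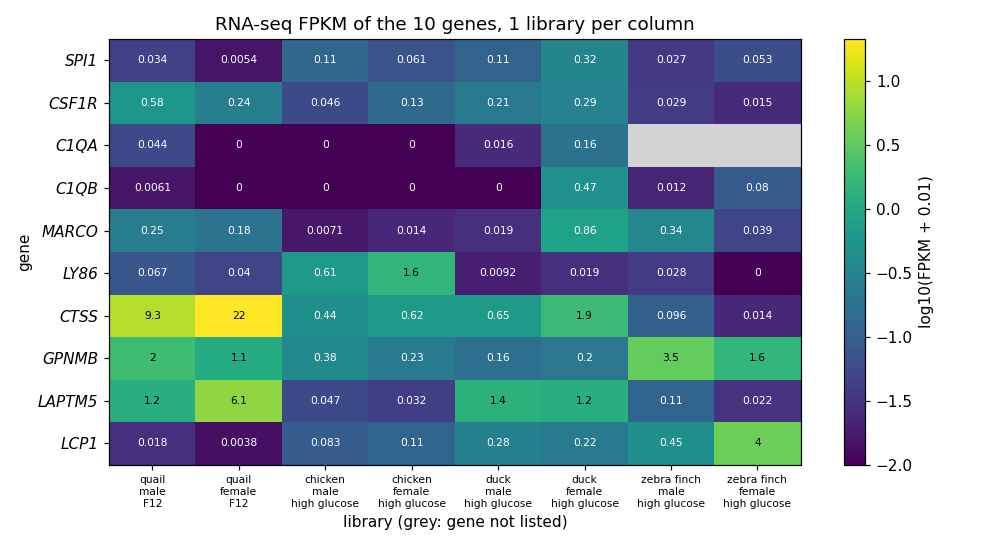
FPKM of the 10 genes (rows) in 8 RNA-seq libraries (columns, male left of female in each species), coloured by log10(FPKM + 0.01) with the FPKM written in each cell, grey where the gene is not listed. CTSS in both quail F12 cultures and LAPTM5 in the female one have the highest values, and the high-glucose cultures of chicken, duck and zebra finch reach at most 3.99 FPKM.

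Outside quail most of the 10 genes had no promoter peak, CTSS in duck and GPNMB in zebra finch being the exceptions. In chicken none had a promoter peak, and RNA-seq, made there from high-glucose cultures, summed over the 10 to 1.73 FPKM in the male and 2.76 FPKM in the female. LY86 was the highest of them with 0.611 FPKM in the male and 1.57 FPKM in the female, C1QA and C1QB had no count in either library, and SPI1 had 23 and 18 counts. The sum over the 10 genes in duck was 2.81 FPKM in the male and 5.599 FPKM in the female. In the duck female, but hardly in the male, C1QB (11 counts, 0.473 FPKM) and MARCO (65 counts, 0.859 FPKM) were seen, while the male had 0 and 3 counts. The quail RNA-seq libraries, from F12, summed to 13.5 FPKM in the male and 29.1 FPKM in the female, or to 0.993 and 0.468 FPKM without CTSS, LAPTM5 and GPNMB. As the assays cover different media in quail and in the other species, and the species were mapped and annotated apart, these sums stand side by side and were not tested.

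Duck CAGE gave peaks for CTSS alone among the 10, at 11569 and 19704 bases from the annotated start, which the authors' classifier took for promoters though they lie between genes. Their summed level was 37.3, 48.8 and 34.3 TPM in high glucose (C32, C34, C36), against 40.1, 52.8 and 44.2 TPM in F12 (C31, C33, C35). Each embryo was lower in high glucose, and the stronger peak differed by -0.11 ± 0.17 (SE, log2 scale; limma adjusted p = 1.00). Neither CTSS peak was called between the sexes in duck, with limma adjusted p of 0.959 and 0.361 (3.19% of all peaks called higher and 1.28% lower in the male). Nor were genes of the wider lists in chicken (1.39% and 1.27% called) or duck. By limma 3 of their chicken peaks and 2 of their duck peaks had an unadjusted p under 0.05. Over all peaks 1287 of 9084 in chicken and 1726 of 8619 in duck had an unadjusted p under 0.05. Of the list peaks, edgeR called none.

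Zebra finch CAGE had a promoter peak for GPNMB alone. GPNMB had 4.89 TPM in the male (C39) and 2.53, 28.9 and 6.21 TPM in the females (C40, C41, C42), with a limma adjusted p of 0.932 between the sexes. The female C41 stood above the rest, and without it the log2 difference of the male against the females was 0.22 in place of -0.63. RNA-seq listed 9 of the 10 genes, and GPNMB had 1250 counts (3.55 FPKM) in the library labelled male and 607 counts (1.59 FPKM) in that labelled female. LCP1 had 135 counts (0.450 FPKM) in the library labelled male and 1294 counts (3.99 FPKM) in that labelled female, while the other 7 genes stayed at or under 0.338 FPKM. The sex labels of these 2 RNA-seq libraries are the reverse of those of the CAGE libraries with the same numbers, so no direction between the sexes is drawn from them.

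Other macrophage genes differed among the zebra finch cultures, as a description without a test of the cultures. A zebra finch promoter peak was found for 20 genes of the 10 and the wider lists, and those named here were picked after their values were seen. CD74, the invariant chain of antigen presentation, had 16.7 TPM in the male C39 and 12.7, 87.1 and 114 TPM in the females C40, C41 and C42. ACP5, an acid phosphatase of osteoclasts and macrophages, had 0.184 TPM in C39 and 0.106, 17.1 and 10.6 TPM in C40, C41 and C42. The third C1q chain, C1QC, had 0.0922 TPM in C39 and 0.422, 5.44 and 10.7 TPM in C40, C41 and C42, and the scavenger receptor CD36 had 0.645 TPM in C39 and 1.06, 18.4 and 14.5 TPM. By limma none of the 20 was called between the sexes (0% of all peaks called higher and 0.252% lower in the male). An unadjusted p under 0.05 was found for 3 of the 21 peaks of the 9 lists and for 765 of all 9516 peaks. edgeR called none of the 20 either. C41 and C42 are both female, as is C40, which stayed low in the 4 genes named. Over the 20 genes, C41 and C42 both lay above C39 and C40 in 7, below them in 3, and neither in the rest. The share of all zebra finch genes with either pattern is not given, so nothing is read from these counts. Among the 3 that lay below, ARHGDIB had 27.5 and 31.4 TPM in C39 and C40, against 15.9 and 19.8 TPM in C41 and C42.

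The medium was also tested for the wider lists in chicken and duck, whose libraries had no part in the choice of the 10 genes. The lists were chosen with earlier results of these data known, so these are not independent tests. Of the 87 genes 18 had a promoter peak in chicken and 14 in duck, and none passed limma's test in either direction (0% of chicken peaks and 0.0116% of duck peaks were called in each direction). The embryo block called none of them either, with a lowest adjusted p of 0.0922 in chicken and 0.0968 in duck. Unadjusted limma p values under 0.05 were found for 6 of 24 chicken peaks and 5 of 18 duck peaks of these lists. Over all peaks they were found for 338 of 9084 in chicken and 198 of 8619 in duck. These shares were not compared by a test. Of the list peaks, edgeR called none in either species. The median log2 difference was 0.04 over the 24 chicken peaks and 0.41 over the 18 duck peaks, against 0.034 and -0.056 over all peaks.

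Among genes without overlap between the media, most were cathepsins. In chicken 5 of the 18 genes, CTSB, CTSC, CTSD, CTSK and ARHGDIB, had every high-glucose culture above every F12 culture and none had the reverse (6.48% and 2.86% of all genes). In duck the 5 of 14 were CTSB, CTSD, CTSK, LGMN and LIPA, all lysosomal, again with none reversed (2.41% and 5.24%). CTSB averaged 439 ± 51.1 TPM in high glucose and 249 ± 47.5 TPM in F12 in chicken (SD, n = 3 each), and the difference of its stronger peak was 0.81 ± 0.16 (SE, log2 scale; limma adjusted p = 1.00, or 0.0922 with the embryo block). The same gene averaged 1162 ± 121 TPM in high glucose and 655 ± 81.9 TPM in F12 in duck. Its stronger peak there differed by 0.83 ± 0.15 (limma adjusted p = 0.702 without the embryo block). Over the limma and edgeR alternatives, the block among them, the lowest adjusted p for this peak was 0.0682. CTSD was higher in 3 of 3 embryos in both species, by 1.54-fold in chicken and 1.52-fold in duck (ratio of means), and in quail by 2.06, 3.82 and 7.59-fold within the pairs of C26, C28 and C30. CTSC was also higher in 3 of 3 embryos of both, by 1.82-fold in chicken and 1.36-fold in duck, and in quail by 5.89, 7.91 and 25.9-fold within the same pairs. CTSK, an osteoclast and fibroblast protease without a quail peak, was 1.48-fold higher in chicken and 2.102-fold higher in duck. None of these cathepsin differences passed the adjusted threshold in chicken or duck, and whether they differ between the species was not tested.

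**Figure D5:**
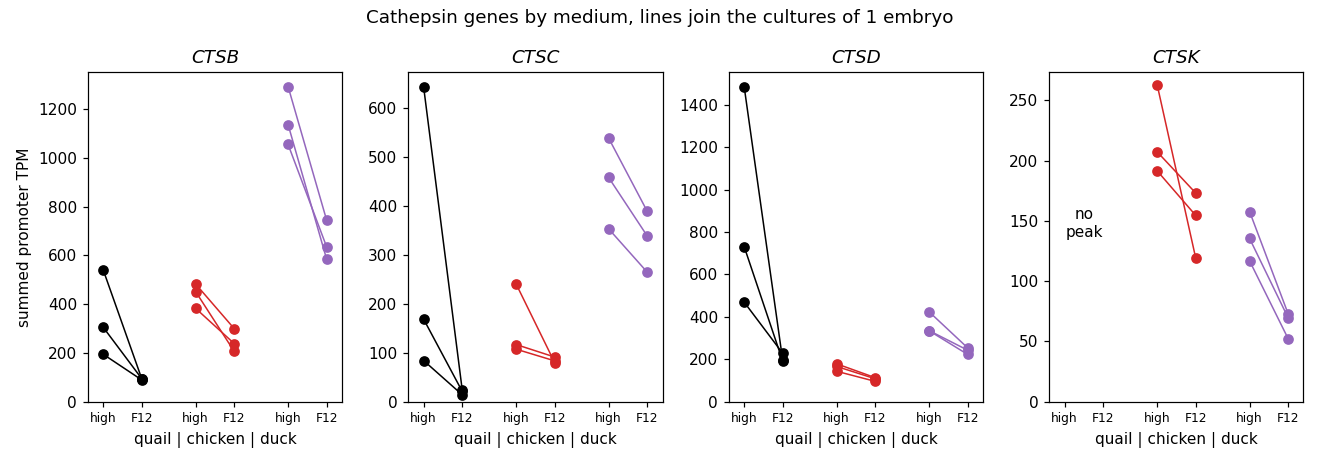
Summed promoter TPM of CTSB, CTSC, CTSD and CTSK in high glucose (left of each pair) and F12 (right) in quail (black), chicken (red) and duck (purple), with a line joining the cultures of 1 embryo. Every line falls to the right, and the quail lines of CTSB, CTSC and CTSD fan out in high glucose, with C30 on top, while the F12 points lie close together.

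Markers of uptake and leukocyte identity mostly had no peak in those species. SPI1, CSF1R, MARCO, MPEG1, STAB1, VSIG4, ITGB2 and PTPRC had no promoter peak in chicken or duck, and IRF8 overlapped between the media in both. It averaged 27.2 ± 7.74 TPM in high glucose and 26.5 ± 2.87 TPM in F12 in chicken (SD, n = 3 each), and ran from 98.2 to 137 TPM in high glucose and from 112 to 139 TPM in F12 in duck. Of those with a peak, the leukocyte gene ARHGDIB was higher in 3 of 3 chicken embryos (1.21-fold, ratio of means) and in 1 of 3 duck embryos, and the kinase LYN in 3 of 3 chicken embryos (1.10-fold), with overlap between the media. The scavenger receptor MRC1 was higher in 3 of 3 duck embryos, by 1.39 to 2.89-fold, at 5.50 ± 5.47 TPM in high glucose and 3.43 ± 4.37 TPM in F12 (SD, n = 3 each). None of the 3 passed the adjusted threshold. In CAGE, promoter tags of all 10 genes were thus recorded in C26, C28 and C30 and in no other of the 22 libraries, with CTSS, LAPTM5, GPNMB and CSF1R as those recorded in all 3 quail F12 cultures. This contrast is partly set by the peak rule, since a table lists a peak only where 1 of that species' own samples reached 10 TPM. In C26, 6 of the 10 genes were under 10 TPM and entered through C28 or C30. LCP1 did so too, as its peaks had 9.89 and 0.968 TPM in C26.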

How the data were processed

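The CAGE values deposited by the authors are TPM, with tags scaled to the library total. The authors removed adapters with Trimmomatic 0.38, aligned reads with BWA 0.7.10-r789 and, where unmapped, HISAT2 2.1.0, called peaks with PromoterPipeline at 10 TPM or more in 1 sample and annotated them with ChIPseeker 1.32.0. Peaks within 3 kb of a gene start or classed as promoters were used and summed per gene for levels. The deposited RNA-seq counts came from HTSeq 2.0.1, and the deposited FPKM from edgeR (3.42.2 in the submitters' notes). Emu, turkey and peafowl were not used here, since their tables carry no symbols for these genes.

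Every TPM value of the 22 libraries (100%) came out as a whole tag, to within 0.05, and from these tags depths and exact 95% intervals for counting error were had. Media (high glucose minus F12) and sexes (male minus female) were compared over all promoter peaks of a species on log2(TPM + 1) with limma 3.58.1 (trend) in R 4.3.3, with Benjamini-Hochberg adjustment. The study used edgeR on TPM for the sexes, and limma was taken because TPM are not counts. No fit for the sexes held an embryo term, so cultures of the same embryo entered as if independent. Alternatives were pseudocounts of 0.1 and 5, a mean of at least 10 TPM, TMM, peaks summed per gene, edgeR 4.0.16 on recovered tags with TMM or DESeq2 1.42.0 size factors, the embryo as a replicate block, medium as a factor, and each library left out. Fits by edgeR with the block were added after the data were seen. Cultures that share a number in the labels were taken to come from the same embryo, as the study describes embryos grown in both conditions. The deviations of such pairs correlated (0.380, 0.454 and 0.415 in quail, 0.706, 0.560 and 0.757 in chicken, 0.750, 0.767 and 0.733 in duck). In emu and peafowl, which were not used, some numbers carry both sexes, so the labels alone do not establish the pairing. The scripts were tested on simulated data.

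The 10 genes, the 18 lists (177 genes) and the tests were chosen with earlier results of these data known. Named are the 10 genes, listed genes with a quail peak, the 20 genes most like and the 5 least like the mean of the 10 (at least 20 TPM and a log2 range of at least 2), and members and list genes in the other species. Genes of the near-silent set, CTSB, CTSC, CTSD and CTSK in other species, and the zebra finch genes were named after their values were seen. No genome sequence was used. The values of 1 gene on these lists are not reported here.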

Additional observations from a re-analysis of the deposited data

Results flagged for a closer look

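The difference of CTSS between media had opposite signs in quail and duck. CTSS was higher in high glucose in 3 of 3 quail embryos (9.12-fold, ratio of means) and lower in 3 of 3 duck embryos (0.878-fold), the only such case among 25 pairs of a macrophage gene and a species set against quail, and the difference was not tested. The duck difference alone did not pass (-0.11 ± 0.17 for the stronger peak, SE, log2 scale; limma adjusted p = 1.00, and 0.795 at the lowest over its alternatives). In duck the CTSS peaks lie far from the annotated gene start.

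In the group of 4 zebra finch libraries GPNMB was far above the rest in C41 (28.9 TPM) and PIK3AP1, an adaptor of leukocyte signalling, far below the rest in C39 (8.20 TPM). These were 2 of 20 genes checked, and chance alone flags about 1 in 20.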

How the results depend on the processing

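Of the quail medium, 7 peaks were called, and 3 with TMM, 12 with peaks summed per gene, 3 with edgeR and TMM, 2 with edgeR and DESeq2 size factors, 34 with the replicate block and 40 with edgeR and the block. Leaving out 1 library gave 0 to 13 (0 without C25 or C27, 1 without C29, 13 without C28). Of the quail sexes, 12 peaks were called, 7 by edgeR with either scaling, and 0 to 3 without any 1 of the 6 libraries. The counts without 1 library ran from 47 (C11) to 332 for the chicken sexes (main count 241, 74 without C08, 124 without C09, 49 without C12), from 134 (C32) to 342 for the duck sexes (main count 385, 240 without C33, 209 without C35), from 0 to 2 for the duck medium (2 without C35 and 0 without each of the others), and from 3 (C41 or C42) to 19 for the zebra finch sexes (main count 24). With the replicate block 1 peak was called for the duck medium, and with a pseudocount of 5, 15 peaks for the zebra finch sexes. The chicken medium stayed at 0 in all settings. The mean log2 difference of the 10 genes, 4.31, became 6.44 with a pseudocount of 0.1, 2.77 with a pseudocount of 5, and 3.42 to 5.14 without an embryo. GPNMB in zebra finch changed sign without C41 (0.22), and its log2 difference was -1.32 without C40 and -1.38 with edgeR and TMM. The block changed no other call on macrophage genes than those given for CTSC, RUNX1, CTSB and MPEG1. For the other changes the cause was not tested. In quail F12 libraries 3 tags are 0.269 to 0.280 TPM, and a count of 0 allows a level up to that.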
